A study of Mus musculus with 5 samples.

Results

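The genes described here are 33 genes of the excitatory synapse, of voltage-gated channels and of monoamine signalling, taken by name from 34614 protein-coding and lncRNA genes in the mm10 RefSeq table. Each was followed by its CpG methylation in mouse sperm. The members were grouped by role as vesicle release (Syn2, Syt1, Snap25, Stx1a, Vamp2), glutamate loading (Slc17a7, Slc17a6), glutamate receptors (Gria1, Gria2, Grin1, Grin2a), synaptic scaffolds (Dlg4, Dlg2, Homer1), kinase and neurotrophin signalling (Camk2a, Bdnf, Ntrk2), monoamine receptors and synthesis (Drd1, Drd2, Htr1a, Htr2a, Tph2, Th), channels (Cacna1a, Cacna1c, Kcnq3, Scn1a), developmental signalling (Nrg1, Disc1), neurofilaments (Nefl, Nefm) and neuronal splicing factors (Rbfox1, Rbfox3). The rule gives the genes by name and uses no measured value. The list was chosen with earlier results of these data known.

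Whole-genome bisulfite sequencing was run on DNA of sperm that swam out of the cauda epididymis of C57BL/6 mice. The young group held 3 libraries of animals aged 2 months, and the old group held 2 libraries of animals aged 18 months. No genotype or treatment other than age is named for either group. Separate animals are not stated for the libraries, so p-values measure the spread between these libraries, and that spread may be technical.

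At an excitatory synapse, SNARE proteins fuse vesicles that vesicular transporters have filled with glutamate, and AMPA and NMDA receptors on a scaffold of PDZ and Homer proteins receive it. Monoamine receptors, neurotrophin signalling and voltage-gated channels set how strongly such neurons respond. These are genes of differentiated neurons. Sperm DNA is methylated at most CpGs, and low levels are usually found at CpG-rich starts, including many starts of genes that sperm do not use.

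The letters before 5 annotated starts are given first, because the windows of 1000 bp either side of these starts show the range of levels in the set, from near 0 to nearly fully methylated. Each is the 250 bases before the start on the gene's own strand, 5′ to 3′, from RefSeq on GRCm38.p6 (mm10), with each CG in capitals. All 4 genes are on the plus strand. Htr1a (chr13:105443443-105443692) has the start measured near 0. Homer1 has a CG-rich upstream start (chr13:93303507-93303756) and a CG-poorer downstream start (chr13:93307784-93308033), whose windows lay at opposite levels. Slc17a6 (chr7:51621580-51621829) has a partly methylated window, and Bdnf (chr2:109722671-109722920) the 1 start of its 7 with enough reads in all libraries. The levels belong to the whole windows: of the CG printed here all 5 libraries had listed reads in Htr1a alone. None of the 21 CG of the Homer1 upstream sequence was listed in any library. Cytosines with under 5 reads are not listed.
Htr1a: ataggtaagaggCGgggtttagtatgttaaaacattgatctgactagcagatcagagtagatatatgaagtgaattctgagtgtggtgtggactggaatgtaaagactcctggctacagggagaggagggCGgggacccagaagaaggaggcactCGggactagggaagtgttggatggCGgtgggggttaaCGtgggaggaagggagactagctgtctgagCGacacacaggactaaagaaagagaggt
Homer1 upstream start: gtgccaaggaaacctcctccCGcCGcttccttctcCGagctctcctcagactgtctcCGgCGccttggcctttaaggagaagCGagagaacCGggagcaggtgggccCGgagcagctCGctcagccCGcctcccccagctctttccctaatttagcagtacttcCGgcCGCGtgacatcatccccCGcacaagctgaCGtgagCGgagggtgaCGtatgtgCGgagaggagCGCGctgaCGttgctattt
Homer1 downstream start: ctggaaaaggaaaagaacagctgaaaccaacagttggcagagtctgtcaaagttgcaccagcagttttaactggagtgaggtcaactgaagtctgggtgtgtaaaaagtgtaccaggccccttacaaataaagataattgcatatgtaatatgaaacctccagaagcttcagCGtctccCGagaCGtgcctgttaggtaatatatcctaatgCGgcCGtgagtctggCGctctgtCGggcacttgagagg
Slc17a6: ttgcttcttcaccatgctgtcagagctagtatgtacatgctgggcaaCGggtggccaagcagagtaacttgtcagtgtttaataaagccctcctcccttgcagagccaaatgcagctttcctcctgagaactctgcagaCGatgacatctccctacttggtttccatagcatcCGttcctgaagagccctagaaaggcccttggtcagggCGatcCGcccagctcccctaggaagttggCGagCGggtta
Bdnf: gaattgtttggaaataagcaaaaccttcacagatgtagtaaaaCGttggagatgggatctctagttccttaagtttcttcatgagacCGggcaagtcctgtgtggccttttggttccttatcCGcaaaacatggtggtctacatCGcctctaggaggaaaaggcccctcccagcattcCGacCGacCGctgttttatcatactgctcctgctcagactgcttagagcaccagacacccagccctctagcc
The Homer1 upstream sequence holds 21 CG, against 7 in its downstream sequence, 7 each in Slc17a6 and Bdnf, and 6 in Htr1a. Over the 41 starts listed for 23 of the genes the median was 7 CG in 250 bases, and over all 32851 starts of the table it was 6. GGGCGG, the GC box, stood on either strand in 15 of the 41 sequences, and in 32.7% of all sequences. TGACGTCA, the cyclic AMP response element, stood in 1 (Th; 1.55% of all), and CACGTG, an E box, in 1 (Grin1; 6.02% of all). CAGCACC, a part of the RE1 element, stood in 0 of the 41 and in 5.73% of all. Each motif was counted on its own whatever it overlapped, and a match only describes the letters.

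Reads over listed CpG cytosines came to between 67774094 and 97769462 per library, and no listed cytosine had under 5 reads. Levels below are percentages of methylated reads over common CpGs, those with at least 5 reads in all 5 libraries, of which there were 2246211 of 13063725 listed (17.2%). Where a level is given over every CpG listed, each library is read at its own CpGs. Differences between libraries there may come from the CpGs read. The median common CpG had 11 to 16 reads per library, and mean methylation was 88.4% to 89.5%. Of 21 marker genes of sperm and of other cells, 11 had a measured window. Among maternal imprints the Nnat start lay at 9.41% to 24.9%, Plagl1 at 9.09% to 40%, Kcnq1ot1 at 0% to 40.2% and Peg3 at 13.4% to 43.3%, while 2 starts of Snrpn lay at 67.7% to 90.2% and 1 end of Peg10 at 90.2% to 96.1%. The left end of H19, the paternal imprint, lay at 90.6% to 100%. Its right end was not measured over common CpGs. There the listed CpGs gave 71.1% in young replicate 2, 62.9% in old replicate 1 and 72.0% in old replicate 2, from 25 to 38 reads. Young replicates 1 and 3 had no listed reads there, and neither end is called the start. Of the germline genes listed as low in sperm, Ddx4 was at 72.9% to 89.6% and Tnp1 at 23.7% to 93.3%, against the level listed for them. The leukocyte gene Ptprc lay at 79.7% to 93.0% and 1 end of the epididymal gene Adam7 at 56.5% to 84.0%. What share of other cells the preparations held was not tested.

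Within the 33 genes, 7621 of 50401 listed CpGs were common. They gave 8 measured windows of 1000 bp either side of a start or gene end, 30 gene bodies, 31 whole spans (body and windows) and 1080 tiles of 1000 bp, each with at least 3 common CpGs. Dlg4, the PSD-95 scaffold of the postsynaptic density, had 11 listed CpGs of which 0 were common. Drd1, the D1 dopamine receptor, had 1 common CpG of 53. Neither was measured, and Htr1a had no measured body. For Snap25, Vamp2, Gria1, Grin2a, Camk2a, Cacna1a, Kcnq3, Nrg1, Nefl and Nefm both ends of the span were used, called left and right by coordinate, and neither is called the start.

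No measured window, body, span or tile of these genes was called as changed with age. Methylated and unmethylated reads were fitted with a quasi-binomial model whose dispersion was moderated as in limma, and a feature was called where the ages differed by 10 points or more with a p under 0.05 after Benjamini-Hochberg adjustment over all features of its kind in the genome. By that rule 0 of 8 windows, 0 of 30 bodies, 0 of 31 spans and 0 of 1080 tiles of the genes were called, and the share called was 0% of 7782 windows, 0% of 21352 bodies, 0% of 23796 spans and 0% of 320580 tiles. The smallest adjusted p was 1 in every class, and limma on log2 odds also made 0 calls. On simulated data the quasi-binomial test recovered almost none of the large changes put into tiles. The 0 calls among tiles therefore do not show that tiles were unchanged. Recovery in windows is not given here, so the 0 calls among windows do not show that windows were unchanged. At an unadjusted p under 0.05 the model gave 1 window (2.2% of all windows), 0 bodies (1.48% of all), 1 span (1.85% of all) and 38 tiles (3.52% of the members' tiles, 3.1% of all), and limma gave 0, 1, 1 and 51, where it gave 3.61% of all windows, 3.51% of bodies, 3.57% of spans and 4.28% of tiles.

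Old minus young lay above 0 in 11 of the 30 bodies and below 0 in 19, with a median of -0.139 points. Over all 21352 bodies 53.4% lay above 0 and the median was 0.0949 points. Both old libraries lay above all young ones in 2 member bodies, Kcnq3 and Vamp2 (7.34% of all bodies), and below them in 1, Nefl (6.43% of all). As shares of the 30 bodies these are 6.67% and 3.33%, near to or below those of the genome. The median body level was 93.3%, against 93.7% for all genes. The plot of body levels by library shows 20 of 30 bodies above 90% and an order of genes that is much wider than the spread of libraries within a gene.

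**Figure D1:**
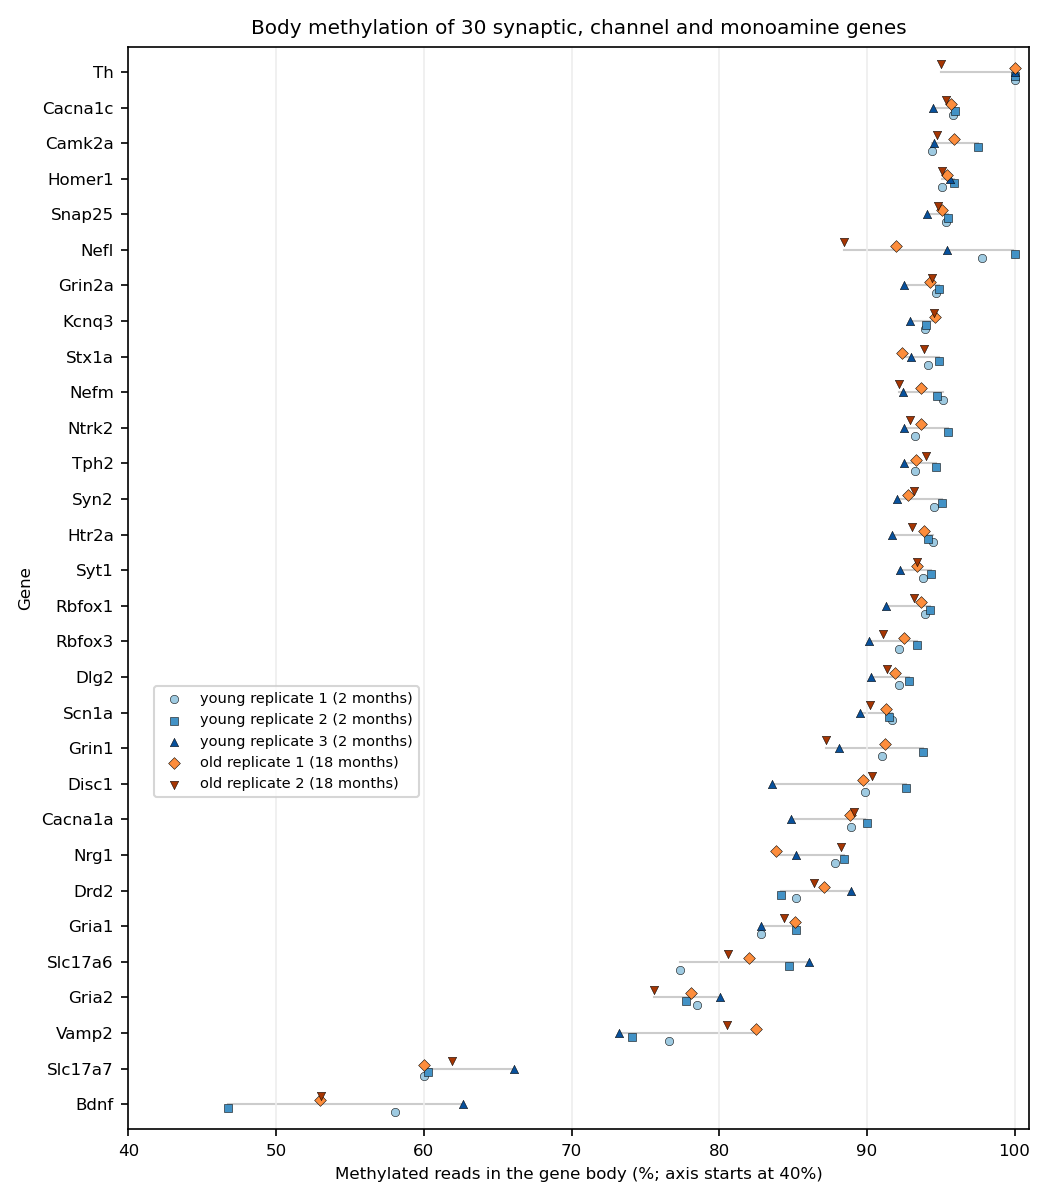
Percentage of methylated reads in the bodies of 30 genes, ordered by mean level, with 1 point per library (blue, 3 libraries of 2 months; orange and brown, 2 libraries of 18 months) and a grey line over the range of the 5. The axis starts at 40%. Bdnf and Slc17a7 lie lowest at means of 54.7% and 61.7%, and over these common CpGs only Kcnq3, Vamp2 and Nefl have old libraries that do not overlap the young ones.

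Among the vesicle release genes, mean body levels ran from 77.4% to 94.97%, and old minus young was above 0 in 1 and below 0 in 4. Vamp2, the SNARE protein of the vesicle membrane, was the lowest. In young replicates 1 to 3 its body was at 76.6%, 74.1% and 73.2%, and in the 2 old replicates at 82.5% and 80.5%, the order in which values are given throughout. Both old libraries were above the 3 young ones, at 81.5% ± 1.42 (SD, n = 2) against 74.6% ± 1.76 (SD, n = 3), but the value rests on 5 CpGs with 54 to 112 reads per library and was not called (quasi-binomial model, unadjusted p = 0.152, adjusted p = 1). Over every CpG listed, 16 CpGs, the old libraries were again above the young ones, by 8.13 points (unadjusted p = 0.158), but each library was read at its own CpGs. Stx1a, a SNARE protein of the plasma membrane, was at 94.1%, 94.9% and 93.0% in young and 92.4% and 93.9% in old libraries, so the groups overlapped. Snap25, its partner, Syn2, which coats vesicles, and Syt1, the calcium sensor of release, had bodies at 94.97%, 93.5% and 93.4%, each within 0.9 points between the ages.

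Syt1 gave the tile with the smallest unadjusted p among those higher in old sperm. At chr10:108692001-108693000 it was at 89.7%, 80% and 91.4% in young and 100% and 100% in old libraries (unadjusted p = 0.00949, adjusted p = 1 by the quasi-binomial model). Old libraries did not overlap young ones there, yet the tile holds 3 CpGs with 20 to 39 reads per library. The Syt1 tile at chr10:108699001-108700000 stood out by its level, at 30%, 17.6% and 42.3% in young and 34.7% and 36.8% in old sperm, inside a gene whose body was above 90% in each library. At the Syt1 start at base 109009111, read from every CpG that a library lists, the level was 81.2%, 93.3%, 70.4%, 94.8% and 81.2%, from 16 to 77 reads. The right end of Snap25, read the same way, was at 89.8% to 97.8%.

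Both vesicular glutamate transporters had partly methylated stretches. Slc17a6 (VGLUT2) was measured at its start over 4 CpGs with 43 to 88 reads, at 50.7%, 48.8% and 45.1% in young and 40.9% and 59.2% in old libraries. The old libraries lay on either side of the young ones, so the mean difference of 1.83 points was below the spread (unadjusted p = 0.940). Near the other end of Slc17a6, the tile at chr7:51668001-51669000 (13 CpGs, 152 to 212 reads) was at 38.2%, 46.1% and 64.7% in young and 47.7% and 39.8% in old sperm. The body of Slc17a7 (VGLUT1) was at 60.0%, 60.3%, 66.1%, 60.0% and 61.9%. Most of its reads came from 1 tile, chr7:45173001-45174000, which held 14 of its 19 common CpGs at 58.0%, 59.1%, 65.2%, 58.9% and 60.3% from 806 to 1161 reads. Young replicate 3 was the highest in this Slc17a6 tile and in the body and tile of Slc17a7, which share most of their reads.

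Of the glutamate receptor genes, the AMPA subunits had bodies at 84.1% in Gria1 and 78.0% in Gria2, and the NMDA subunits at 90.3% in Grin1 and 94.1% in Grin2a. Over every CpG listed the levels were 89.7%, 81.0%, 85.1% and 93.5%, so the order of Gria1 and Grin1 depends on the CpGs used. The Gria2 body, of the subunit that limits calcium entry, was at 78.5%, 77.7% and 80.1% in young and 78.1% and 75.6% in old libraries. With 3883 to 5561 reads per library, the groups overlapped (78.8% ± 1.19, SD, n = 3, against 76.8% ± 1.77, SD, n = 2; unadjusted p = 0.0846, adjusted p = 1). Of 5 partly methylated tiles of Gria2, 4 were adjacent, from chr3:80689001 to 80693000. The one with the most reads, starting at 80691001, with 18 CpGs and 650 to 906 reads, was at 37.8%, 25.1% and 49.1% in young and 35.6% and 30.7% in old sperm, and both old values fell inside the young range.

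Gria1 was at 82.8%, 85.2%, 82.8%, 85.2% and 84.4% over its body. Its left end, over 10 CpGs and 126 to 159 reads, was at 47.2%, 39.4% and 18.5% in young and 35.2% and 31.0% in old libraries. Here the 3 young libraries ranged more widely than the ages differed, the mean difference being -1.93 points. A tile inside Gria1, chr11:57176001-57177000, was at 39.1%, 38.6% and 40% in young and 44.3% and 34.2% in old libraries from 406 to 545 reads. The tile of Gria1 with the smallest p, chr11:57109001-57110000, was at 87.8%, 92.9% and 81.1% in young and 95.9% and 97.9% in old sperm, over 3 CpGs (unadjusted p = 0.0172, adjusted p = 1).

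Grin2a, an NMDA receptor subunit, held the smallest unadjusted p of the 1080 tiles. At chr16:9705001-9706000 methylation was 97.5%, 98.7% and 97.9% in young and 92.0% and 88.1% in old sperm (3 CpGs, 77 to 95 reads, unadjusted p = 0.00623, adjusted p = 1). In the same gene, chr16:9716001-9717000 went the other way, at 92.0%, 91.7% and 88.9% in young and 95.9% and 94.3% in old libraries (9 CpGs, 176 to 378 reads, unadjusted p = 0.0168). The groups did not overlap in either tile. The right end of Grin2a was at 85.7%, 82.1% and 89.1% in young and 72.7% and 86.0% in old libraries over 4 CpGs, the low value being that of old replicate 1. Its left end, over every CpG listed, was at 89.1% to 98.3%. The start of Grin1, the obligatory NMDA subunit, was read from 16 to 47 reads at 0%, 37.5%, 55.3%, 61.4% and 40.6%, and with different CpGs in each library these are not comparable between libraries.

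The plot of window levels shows which starts and ends lay low, between and high. Windows under 30% numbered 3 of 8, the Htr1a start, the right end of Nefm and the left end of Cacna1a, where 21.9% of all 7782 windows lay under 30%.

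**Figure D2:**
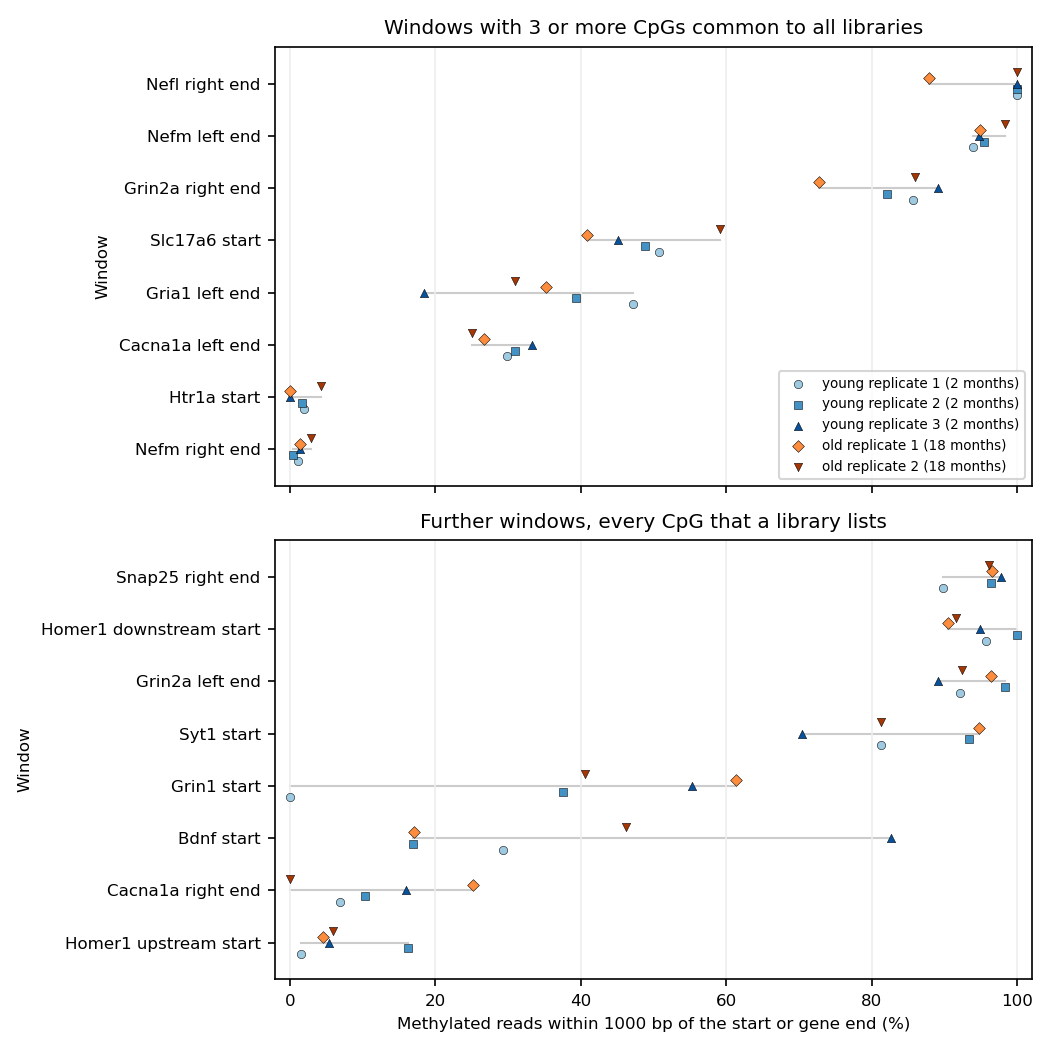
Percentage of methylated reads within 1000 bp of a start or gene end, 1 point per library, with a grey line over the range of the 5. The upper panel has 8 windows with 3 or more CpGs common to all libraries, and the lower panel 8 further windows in which each library's own listed CpGs were used. Htr1a and the right end of Nefm lie near 0, Nefl and the left end of Nefm near 100%, and the 2 Homer1 starts lie at opposite ends.

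Of the scaffold genes, Homer1, which links glutamate receptors to internal calcium stores, showed opposite levels at its 2 annotated starts. Over every CpG listed, the window of the upstream start was at 1.59%, 16.2% and 5.41% in young and 4.55% and 5.88% in old libraries, from 17 to 88 reads. The window of the downstream start was at 95.7%, 100%, 94.9%, 90.6% and 91.7%, from 15 to 72 reads. No library overlapped between the starts. At the upstream start both old libraries lay inside the young range, and at the downstream start both lay below the 3 young ones (unadjusted p = 0.233, adjusted p = 1 by the quasi-binomial model). Each library was read at its own CpGs at both starts, so these orders do not compare the ages at the same CpGs. The Homer1 body was at 95.4%, and its tile at chr13:93327001-93328000 was at 89.6%, 91.7% and 95.8% in young and 100% and 100% in old sperm (3 CpGs, unadjusted p = 0.0131, adjusted p = 1).

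Dlg2, the PSD-93 scaffold, spans 1973 kb and gave 290 tiles, more than any other member. Its body was at 91.7%, with a difference of -0.106 points between the ages. The lowest tile of Dlg2, chr7:91431001-91432000, was at 13.7%, 10.4% and 25.2% in young and 13.0% and 19.3% in old libraries. It lay 340.7 kb from the nearest listed start of Dlg2, had 20 listed CpGs, and both old libraries fell inside the young range. A tile at chr7:90590001-90591000 was at 59.5%, 61.1% and 66.7% in young and 57.1% and 53.1% in old sperm from 334 to 532 reads, and both old libraries were below all young ones (unadjusted p = 0.0192, adjusted p = 1).

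Bdnf, the neurotrophin released at active synapses, had the lowest of the 30 bodies over common CpGs. Its body was at 58.0%, 46.7% and 62.7% in young and 53.0% and 53.0% in old libraries over 42 CpGs and 710 to 932 reads. Both old values lay between those of young replicates 2 and 3 (55.8% ± 8.20, SD, n = 3, against 53.0% ± 0.0443, SD, n = 2). Over every CpG listed Bdnf was at 65.0% and Slc17a7, at 60.6%, was the lowest. The tile at chr2:109724001-109725000, with 12 of these CpGs and 401 to 549 reads, was at 36.7%, 23.8%, 46.4%, 29.1% and 32.1%. Of the 7 starts of Bdnf, 1 had enough reads in all 5 libraries, at base 109722921, and its window was at 29.3%, 16.9% and 82.6% in young and 17.0% and 46.3% in old libraries from 23 to 92 reads. Each library was read at its own CpGs there, so these levels are not comparable between libraries. Its receptor gene Ntrk2 (TrkB) and Camk2a, the kinase of synaptic plasticity, had bodies at 93.6% and 95.4%, with differences of -0.447 and -0.165 points.

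Annotated starts measured over common CpGs were those of Slc17a6 and, among the monoamine genes, Htr1a, which was the lower. The right end of Nefm had a similar mean, at 1.46% against 1.58% at the Htr1a start. Htr1a, the inhibitory serotonin 1A receptor, was at 2.00%, 1.67% and 0% in young and 0% and 4.26% in old libraries over 7 CpGs and 47 to 71 reads. The 2 values of 0 come from 71 reads each, which allows up to 4.23%. In the 250 bases printed above, 0 methylated reads were seen in any library, of 44, 29 and 44 reads in young and 33 and 20 in old, which allow up to 6.82%, 10.3%, 6.82%, 9.09% and 15%. The Htr1a start was under 5% in every library, and its sequence holds 6 CG, 1 fewer than the median of these genes.

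Other monoamine bodies were high and alike between the ages. Drd2, the D2 dopamine receptor, was at 86.4%, Htr2a, the serotonin 2A receptor, at 93.5%, and Tph2, which makes serotonin in neurons, at 93.6%. Their differences were 0.644, 0.00315 and 0.197 points. Th, the rate-limiting enzyme of dopamine synthesis, was at 100%, 100%, 100%, 100% and 95%, but over 3 CpGs with 17 to 22 reads 1 read decides such a difference.

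Among the channel genes, Kcnq3, which encodes a subunit of the M-type potassium current, had a body with both old libraries above all young ones by a narrow margin, at 93.9%, 94.0% and 92.9% in young and 94.6% and 94.5% in old sperm (159 CpGs). The means, 94.6% ± 0.0413 (SD, n = 2) and 93.6% ± 0.593 (SD, n = 3), differed by 0.965 points (unadjusted p = 0.0874, adjusted p = 1 by the quasi-binomial model). Over every CpG listed the difference was 0.380 points and the groups overlapped, old replicate 2 being at 93.0% and young replicate 2 at 94.1%. Cacna1a, the P/Q-type calcium channel of nerve terminals, had a body at 88.9%, 90%, 84.9%, 88.9% and 89.1%, with young replicate 3 low. The bodies of Cacna1c, the L-type channel, and of Scn1a, a sodium channel, were at 95.5% and 90.9%.

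The left end of Cacna1a was at 29.9%, 30.9% and 33.3% in young and 26.7% and 25% in old libraries over 7 CpGs and 64 to 129 reads. It was the 1 member window with both old libraries below all young ones (7.45% of all windows), at -5.51 points (unadjusted p = 0.243, adjusted p = 1). The mean over CpGs in place of reads gave 0.55 points, so the direction depends on how CpGs are weighted. Cacna1a also held tiles at 0.588% on average, 76.9 kb inside its left end (chr8:84415001-84416000), where 4 libraries had 0 methylated reads of 16 to 32 and young replicate 3 was at 2.94%, and at 12.4% in chr8:84600001-84601000. Its right end, over every CpG listed, was at 6.92%, 10.3%, 16%, 25.2% and 0% from 29 to 595 reads. With different CpGs in each library these levels are not comparable between libraries.

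The 2 neurofilament genes lie close together on chromosome 14 and encode the light and medium subunits of the axon's filaments. Nefl had the body with the smallest unadjusted p of those lower in old sperm, at 97.8%, 100% and 95.5% in young and 92.0% and 88.5% in old libraries. All young libraries were above both old ones (97.7% ± 2.27, SD, n = 3, against 90.2% ± 2.50, SD, n = 2; unadjusted p = 0.0762, adjusted p = 1), on 5 CpGs with 41 to 52 reads. Over every CpG listed, 24 CpGs, the groups overlapped, at 94.4%, 86.0% and 94.3% against 86.5% and 88.9%, and the difference was -3.88 points (unadjusted p = 0.410). Over its whole span, 8 CpGs, Nefl was at 98.5%, 100%, 97.1%, 90.4% and 91.3% (unadjusted p = 0.0232, and 0.00307 by limma; adjusted p = 1 by both). At its right end 3 CpGs gave 100% in 4 libraries and 87.9% in old replicate 1, from 17 to 33 reads (unadjusted p = 0.0416).

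Nefm had both its ends measured, at opposite levels. Its right end was at 1.18%, 0.498% and 1.33% in young and 1.34% and 2.93% in old libraries over 16 CpGs and 201 to 376 reads. Its left end, 5.46 kb away, was at 94.0%, 95.4%, 94.8%, 94.9% and 98.3% over 12 CpGs. Both ends kept their level in every library. The right end was the 1 member window with both old libraries above all young ones (7.76% of all windows), by 1.14 points between the means (unadjusted p = 0.182, adjusted p = 1), and by 0.341 points without old replicate 2.

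Rbfox1, a splicing regulator of neurons and muscle, and Rbfox3, known as the nuclear marker NeuN, had bodies at 93.3% and 91.9%. The tile of Rbfox1 at chr16:6250001-6251000 was at 100% in all 3 young libraries and at 91.9% and 91.7% in the old ones (5 CpGs, 35 to 48 reads, unadjusted p = 0.00689), and at chr16:6468001-6469000 it was at 90.5%, 93.3% and 75.0% against 100% and 100% (3 CpGs, unadjusted p = 0.0208). Both have an adjusted p of 1, and the directions are opposite. The lowest tile of Rbfox1, chr16:7039001-7040000, was at 0%, 0%, 2.60%, 3.45% and 7.69% from 29 to 77 reads. It lay 30.3 kb from the nearest listed start, and both old libraries were above the young ones by a margin of few reads.

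Tiles under 30% were few. There were 10 among the 1080 (1.18% of all tiles), in Cacna1a and Nrg1 (3 each) and in Dlg2, Htr1a, Nefm and Rbfox1 (1 each). They held a median of 19.5 listed CpGs, against 7 in the other member tiles, and over all tiles the same medians were 16 and 7. Those at the Htr1a start, the left end of Cacna1a and the right end of Nefm are the CpGs of the windows described above. The other 7 lay inside the spans.

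Partly methylated tiles, at 30% to 70%, numbered 36 in 13 of the genes, or 3.33% of their tiles against 6.01% of all tiles. Over the 51 member tiles at 20% to 80% outside Nrg1, young replicates 1 to 3 averaged 60.3%, 55.1% and 60.0% and old replicates 58.5% and 58.8%. Young replicate 2 was the lowest library in 19 of these tiles (37.3%, against 36.4% of all tiles at that level) and young replicate 3 the highest in 17 (33.3%, against 36.6%). In the 433 member tiles at 80% to 95% young replicate 3 was the lowest in 181 (41.8%, against 35.0% of all). Over all tiles at 20% to 80% the young replicates averaged 61.6%, 59.8% and 65.4% and the old replicates 63.0% and 62.8%. Young replicate 2 had the lowest mean in both sets. The highest was young replicate 1 in the members and young replicate 3 over all tiles. At 80% to 95% the libraries had the same order of means in both sets. Of the 7 measured windows of maternal imprints, young replicate 2 was lowest in 3, among them Nnat, and young replicate 3 highest in 4, while young replicate 1 was lowest in 3 others and Plagl1 had old replicate 2 lowest. What part such library differences had in the member tiles was not tested.

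**Figure D3:**
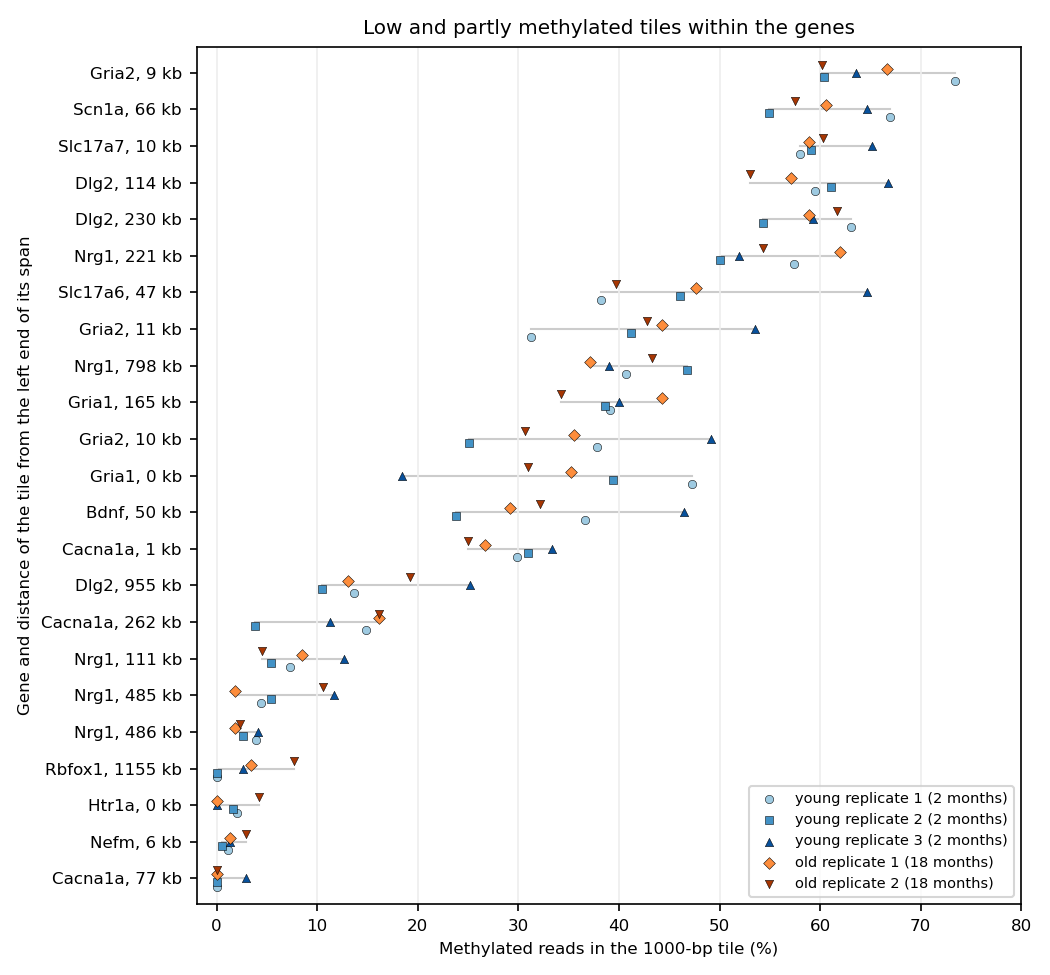
Percentage of methylated reads in the 10 tiles under 30% and in the 13 tiles at 30% to 70% with at least 100 reads in every library, 1 point per library, with a grey line over the range of the 5. Each row gives the gene and the distance of the tile's centre from the left end of the span. In Gria2 at 10 kb, Bdnf and Slc17a6 both old libraries fall within the young range and young replicate 3 lies at the right of the row.

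In Nrg1, the neuregulin that signals through ErbB receptors, 1 library stood apart. Its span of 1084 kb lies on chromosome 8 inside a stretch, 29 Mb to 44 Mb, whose bounds were set earlier on these same data, by old replicate 1 being low there. Values inside it are therefore a description. Old replicate 1 was at least 10 points below all other libraries in 20 of the 159 tiles of Nrg1 (12.6%), against 2, 0 and 3 tiles for young replicates 1 to 3 and 0 for old replicate 2. In the other members old replicate 1 did so in 0.869% of tiles, in the rest of the stretch in 11.2%, and over all tiles outside it in 0.541%. In the 20 tiles it ranged from 51.3% to 86.3%, with a median of 75.1% against 95.5% in the other libraries, and they began between 128 kb and 1030 kb from the left end, along most of the gene.

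Single tiles show this. At chr8:31965001-31966000 Nrg1 was at 96.1%, 96.5% and 96.8% in young libraries, 74.8% in old replicate 1 and 96.5% in old replicate 2, from 229 to 282 reads. At chr8:31935001-31936000 the values were 96.8%, 100%, 94.7%, 71.4% and 95.3%. In both the old replicates disagreed, and the age difference of -10.8 points in the first became 0.0471 points without old replicate 1. At chr8:31830001-31831000 both old libraries were below the young ones, at 84.7% and 89.7% against 93.1%, 96.5% and 91.9% (272 to 397 reads, unadjusted p = 0.0105, or 0.0582 by limma, adjusted p = 1). Without old replicate 1 that difference moved from -6.64 to -4.13 points (unadjusted p = 0.194).

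Of single Nrg1 CpGs at 90% or more in the other 4 libraries, 44 of 486 (9.05%) were at 30% to 70% in old replicate 1, against 1 to 4 CpGs for each other library. Over all common CpGs of Nrg1 the methylated share of reads was 83.9% in old replicate 1 (95% Wilson interval 83.4% to 84.4%, counting error only) and 85.2% to 88.4% in the others. What sets old replicate 1 apart was not tested. The least methylated tile of Nrg1, chr8:32293001-32294000, was at 3.94%, 2.60%, 4.09%, 1.81% and 2.33% from 331 to 832 reads. At chr8:32055001-32056000 old replicate 1 was the high library, at 87.5% against 30.4% to 48.0%. Disc1, a scaffold of developing neurons on the same chromosome outside this stretch, had a body at 89.9%, 92.6%, 83.6%, 89.8% and 90.4%, with young replicate 3 low.

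**Figure D4:**
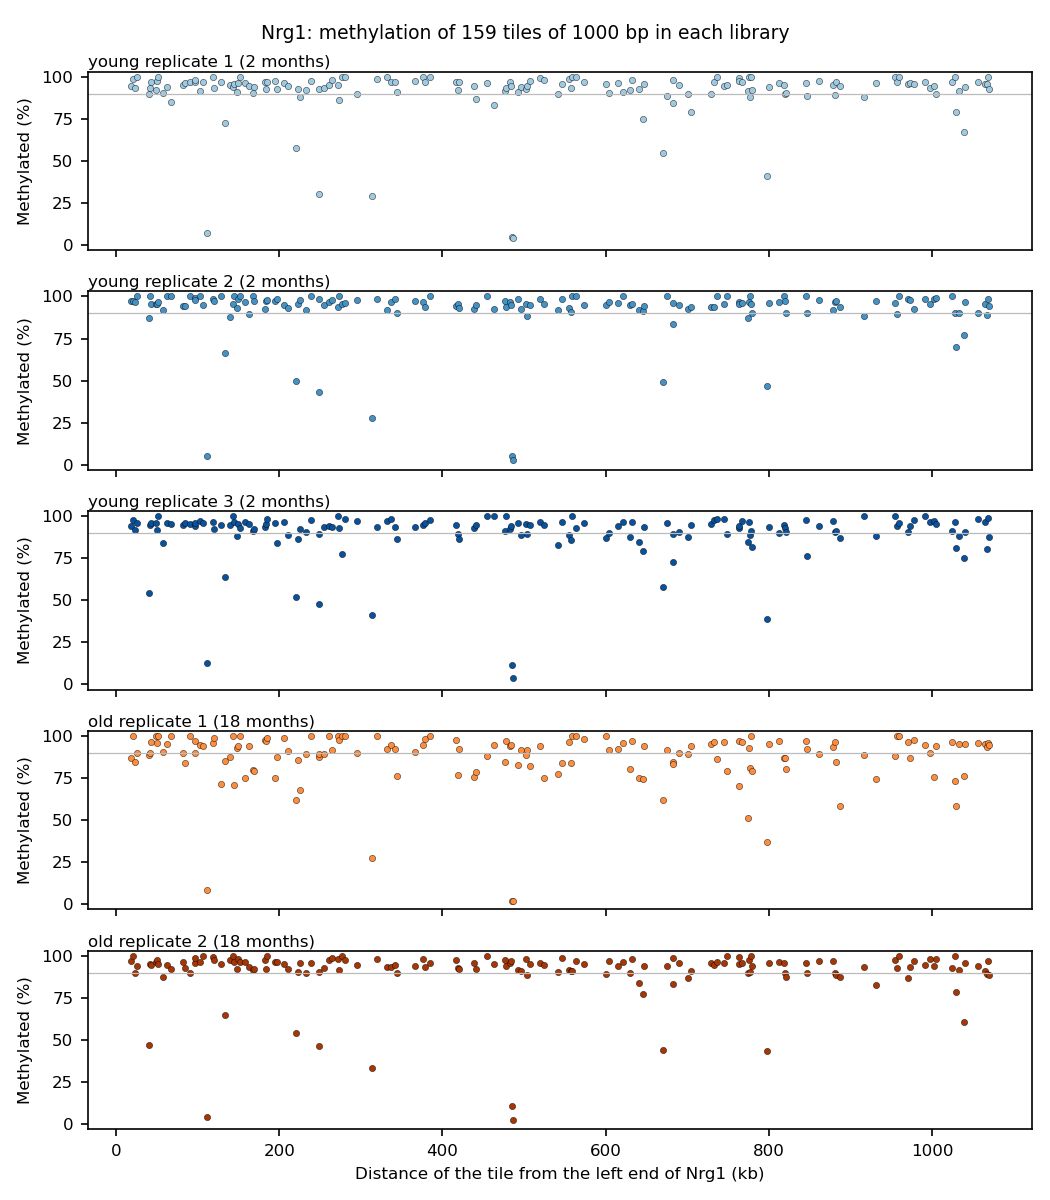
Percentage of methylated reads in the 159 measured tiles of Nrg1, 1 point per tile and 1 panel per library, against the distance of the tile from the left end of the span in kb, with a grey line at 90%. In old replicate 1 many tiles lie between 50% and 90% along the gene. The median tile is above the line in every library, at 91.9% in old replicate 1 and 94.2% to 95.7% in the others. The low tile near 486 kb is low in all 5.

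Nrg1 weighed on the tile counts by unadjusted p. Of the 38 member tiles with an unadjusted p under 0.05, 12 were higher in old sperm (1.11% of member tiles, against 1.78% of all tiles). The other 26 were lower (2.41% of member tiles, against 1.32% of all tiles), and 11 of the lower ones were in Nrg1. Of those 11, 7 are among the 20 tiles in which old replicate 1 stood apart. Without Nrg1 the counts were 12 higher (1.30%) and 15 lower (1.63%) of 921 tiles. Both old libraries lay above all young ones in 74 member tiles (6.85%, against 8.82% of all tiles). They lay below them in 116 (10.7%, against 8.16% of all tiles), of which 20 were in Nrg1. Without Nrg1 these shares were much the same, at 65 (7.06%) above and 96 (10.4%) below.

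A further 78 genes of the same pathways, from other SNARE and active zone proteins to receptor subunits, monoamine enzymes and channels, were compared in the same way. Of their 69 measured bodies 37 were higher and 32 lower in old sperm, with a median difference of 0.0585 points, and 0 were called. Over all bodies 53.4% were higher. At an unadjusted p under 0.05 there was 1 of the 69, where 1.48% of all bodies passed. It was Bsn, the active zone protein Bassoon, with young libraries at 93.2% ± 0.613 (SD, n = 3) and old ones at 90.9% ± 1.03 (SD, n = 2) (unadjusted p = 0.0428, adjusted p = 1 by the quasi-binomial model). Of their 18 measured windows 5 were higher and 12 lower, where 3987 of all 7782 windows were higher and 3747 lower. None of the 18 was called, and 0 had an unadjusted p under 0.05 (2.2% of all windows). By limma 1 window and 1 body had an unadjusted p under 0.05, where 3.61% of all windows and 3.51% of all bodies did.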

How the data were processed

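CpG methylation of sperm DNA was compared between 3 young (2 months) and 2 old (18 months) libraries. Per the submitters' processing notes, the authors worked on mm10 (GRCm38) with Bismark 0.16.3, Trim Galore 0.4.3 and methylKit 1.4.0. How these were set, and whether duplicate reads were removed, is not given in the sources used here. Per the file headers, the deposited files give a count of reads (coverage) for each cytosine, with the percent that were C and the percent that were T. Percent times coverage returned whole reads for every listed cytosine, within 0.005 points of the listed percent. The reads do not separate a C-to-T variant or incomplete conversion from methylation state.

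Both strands of a CpG were summed, and CpGs above the 99.9th percentile of a library's coverage were left out. Reads were summed over windows, bodies, spans and tiles. Starts came from the RefSeq promoter table (GRCm38.p6), which gives several starts for some genes and holds 23 of the 33; each start was a window, and both ends were used for genes without one. Body means are library means. All features of a kind were fitted together, old against young, by quasi-binomial regression with dispersion moderated by limma's squeezeVar and kept at 1 or above; limma 3.58.1 (R 4.3.3) on log2((methylated + 1)/(unmethylated + 1)) was an alternative. Other alternatives covered the dispersion, coverage limits, CpG sets, tile and window width, CpG weighting, the replicate number and leaving out single libraries. The rule for named features took every measured window, the 5 bodies and 5 tiles in each direction with the smallest unadjusted p, and the lowest tile of each gene with one under 30%. Further tiles were named for their level after their values were seen. The test was tried on simulated data: it recovered most of the large changes put into bodies and spans but almost none put into tiles. Members, roles, the list of 78 further genes, the marker genes and the promoter motifs were chosen with earlier results of these data known. Intervals and limits for 0 reads cover counting error only. Software was matplotlib 3.10.9, scipy 1.17.1, pandas 2.3.3, numpy 2.4.6 and Python 3.11.15.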

Additional observations from a re-analysis of the deposited data

How the results depend on the processing

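Counts of called member windows, bodies and spans stayed at 0 under every alternative that was run. Counts of called member tiles did so under all but the binomial model without moderated dispersion. That model called 6 member tiles, all in Nrg1, of 700 called over all tiles. Over all features it called 55 windows, 41 bodies and 69 spans. Without the 10-point minimum it gave an adjusted p under 0.05 in 2 member bodies, 3 spans and 11 tiles (441, 632 and 1302 over all features). The Gria2 body was among them (adjusted p = 0.0221 by the binomial model). The following of the 28 named differences changed sign or reached 0. With 1 library left out the difference ranged from -7.31 to 10.96 points at the Slc17a6 start, -10.2 to 4.17 at the left end of Gria1, -1.22 to 3.03 at the Htr1a start, -12.1 to 0 at the right end of Nefl, -12.9 to 0.368 at the right end of Grin2a, -0.481 to 2.09 in the Cacna1a body, -1.20 to 3.31 in the Disc1 body, -7.33 to 0.642 in the Bdnf body, -5 to 0 in the Th body and -21.7 to 0.0471 in the Nrg1 tile at 31965001. With a minimum of 10 reads the left end of Gria1 gave 0.567, and with the mean of CpG percentages the left end of Cacna1a gave 0.55. The causes were not tested. Replicates 1 and 2 are numbered in both groups. Deviations of same-numbered libraries had r = 0.0095 and -0.0200 across 320580 tiles, which are not independent. With 2 old libraries the deviations of one mirror those of the other. These r therefore cannot decide whether same-numbered libraries were paired or handled together. With the replicate number as a block, which leaves out young replicate 3, calls stayed at 0 and the bodies of Cacna1a, Disc1 and Bdnf gave -0.481, -1.20 and 0.642 points. Counts of tiles with an unadjusted p under 0.05 moved with the setting, in the members and over all tiles. Without young replicate 2, 22 member tiles were higher in old sperm and 14 lower (3.33%, against 3.32% of all tiles). Over all tiles 6850 were higher and 3808 lower. With the block, 0 member tiles were higher and 8 lower (0.741%, against 0.317% of all tiles). Over all tiles 649 were then higher and 368 lower. Leaving out Nrg1 was chosen after seeing the data. The low tile of Dlg2 rose from 16.3% to 24.6% with every listed CpG. Wider tiles gave no values for the named tiles. Of the 61 member windows 8 were measured, and the others had too few common CpGs.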
